A study of Homo sapiens with 16 samples.

Results

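AP-1 is a family of dimeric transcription factors built from basic leucine zipper proteins. The genes described here are 9 subunits and related dimer partners, taken by symbol: FOS, FOSB, FOSL1 and FOSL2 of the Fos group, JUN, JUNB and JUND of the Jun group, BATF3 of the BATF group, and MAFF of the small Maf group. Each of the 9 symbols matched 1 of the 62069 Ensembl gene identifiers measured, and all 9 were among the 13526 genes that passed the filter on low counts. FOSB passed only through the groups given 4OHT, since it had under 10 reads in every EV library. They were followed in 4 groups of IMR90 ER:RAS cells, each with 4 RNA-seq libraries. IMR90 is a line of human lung fibroblasts, and ER:RAS is an oncogenic RAS joined to a receptor domain that 4-hydroxytamoxifen (4OHT) switches on. Cells of the shAHCY_2 and shAHCY_4 groups carried 1 of 2 short hairpins against AHCY, the enzyme that breaks down S-adenosylhomocysteine, and were given 4OHT at 100 nM. EV+4OHT cells, labelled senescent, had the same treatment with EV in place of a hairpin, and EV cells were labelled non-senescent. All 4 groups carried ER:RAS, are labelled day 6 and passage 15, and were grown in DMEM with serum. Hairpin cells without 4OHT, and cells without ER:RAS given 4OHT, are not analysed here. Separate cultures are not stated in the labels, and the p-values below therefore reflect only how far these libraries scatter, which could be technical.

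A Fos protein cannot pair with itself and binds DNA as a dimer with a Jun protein, whereas Jun proteins can also pair among themselves. Both kinds of dimer read the site TGAGTCA and, less tightly, the cyclic AMP response element TGACGTCA. FOS, FOSB and JUN carry transactivation domains, while FOSL1 and FOSL2 (Fra-1 and Fra-2), BATF3 and MAFF lack the one that FOS has. AP-1 lies downstream of RAS and the MAP kinases, and in fibroblasts it is known for driving growth-factor responses, matrix metalloproteinases and cytokines.

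Library totals were 10066216 to 14692680 counts in shAHCY_2, 8236199 to 15144530 in shAHCY_4, 12502278 to 15284201 in EV+4OHT and 13956130 to 18235787 in EV. AHCY itself averaged 18.5 ± 4.54 CPM (counts scaled to library size) in shAHCY_2 and 14.7 ± 2.19 CPM in shAHCY_4, against 164 ± 8.08 CPM in EV+4OHT (SD, n = 4 each). All 8 fibroblast markers examined were detected in every library, and KRT14, CD3E, ITGAM, PECAM1 and CDH5, markers of epithelial, blood and vessel cells, had 0 counts in all 16. The sum of the 8 fibroblast markers was 4734 to 4909 CPM in EV+4OHT and 10600 to 12270 CPM in EV, and its part in the differences between those groups was not tested. The epithelial, leukocyte and endothelial markers summed to at most 3.81, 1.13 and 7.40 CPM in any library. Among the libraries 2 stood apart. In shAHCY_2 replicate 59 and EV replicate 51 the deviation of a gene from its mean over all 16 libraries fell with its GC content. Spearman's rho across genes was -0.528 and -0.263, against -0.116 to 0.277 in the other 14. Differences between groups enter these values too. In bulk RNA, fewer cells of a type and less RNA per cell cannot be told apart.

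The promoters of 6 of the genes are shown because FOS, FOSB, JUNB and MAFF rose, FOSL2 fell and JUN moved least among those called in EV+4OHT cells. Each is the RefSeq window in GRCh38.p14, from 250 bases before to 50 bases after the start, read 5′ to 3′ on the gene's strand, with capitals marking a match to TGACGT, TGACGTCA, TGACATCA or TGAGTCA on either strand. FOS is at chr14:75278578-75278877 (plus strand), FOSB at chr19:45467746-45468045 (plus), MAFF at chr22:38201744-38202043 (plus, the first of its 2 windows), JUNB at chr19:12791236-12791535 (plus), FOSL2 at chr2:28392608-28392907 (plus) and JUN at chr1:58783998-58784297 (minus).
FOS: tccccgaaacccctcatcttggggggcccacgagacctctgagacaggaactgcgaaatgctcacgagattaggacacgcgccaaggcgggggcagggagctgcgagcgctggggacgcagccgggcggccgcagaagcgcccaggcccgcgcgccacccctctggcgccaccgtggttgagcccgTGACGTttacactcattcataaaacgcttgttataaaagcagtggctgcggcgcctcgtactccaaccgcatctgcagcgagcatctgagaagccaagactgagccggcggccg
FOSB: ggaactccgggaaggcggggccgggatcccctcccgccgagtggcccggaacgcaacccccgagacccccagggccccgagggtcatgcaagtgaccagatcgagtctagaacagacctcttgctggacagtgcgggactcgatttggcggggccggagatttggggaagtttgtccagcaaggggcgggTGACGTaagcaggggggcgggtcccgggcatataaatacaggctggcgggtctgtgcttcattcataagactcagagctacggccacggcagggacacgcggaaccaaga
MAFF: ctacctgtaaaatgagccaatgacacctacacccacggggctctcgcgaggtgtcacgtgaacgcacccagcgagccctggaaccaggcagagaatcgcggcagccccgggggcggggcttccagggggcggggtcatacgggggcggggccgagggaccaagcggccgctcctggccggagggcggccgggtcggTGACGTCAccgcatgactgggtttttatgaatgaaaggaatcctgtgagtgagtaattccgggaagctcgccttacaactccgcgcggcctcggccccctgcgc
JUNB: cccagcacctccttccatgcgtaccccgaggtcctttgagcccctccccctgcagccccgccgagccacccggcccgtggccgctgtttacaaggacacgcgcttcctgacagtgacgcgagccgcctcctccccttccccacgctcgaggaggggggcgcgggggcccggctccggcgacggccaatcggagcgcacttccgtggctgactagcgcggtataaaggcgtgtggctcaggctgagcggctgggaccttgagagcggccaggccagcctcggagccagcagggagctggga
FOSL2: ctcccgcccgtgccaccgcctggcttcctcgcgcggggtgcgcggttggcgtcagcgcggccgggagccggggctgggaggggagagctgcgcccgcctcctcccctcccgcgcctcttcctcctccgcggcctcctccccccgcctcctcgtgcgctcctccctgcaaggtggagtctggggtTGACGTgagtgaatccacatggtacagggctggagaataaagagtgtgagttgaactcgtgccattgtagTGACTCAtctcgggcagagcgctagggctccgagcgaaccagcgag
JUN: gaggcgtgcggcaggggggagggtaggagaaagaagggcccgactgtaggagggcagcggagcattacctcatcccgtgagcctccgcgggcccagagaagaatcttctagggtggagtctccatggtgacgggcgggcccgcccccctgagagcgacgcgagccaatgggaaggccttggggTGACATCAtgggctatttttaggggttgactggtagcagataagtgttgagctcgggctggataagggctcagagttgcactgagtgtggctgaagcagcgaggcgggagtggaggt
The shorter element TGACGT began at position -64 in FOS, -60 in FOSB and -66 in FOSL2, counted from the start site. In MAFF it lay within the full element TGACGTCA at -54, and JUND held TGACGTCA at -200 and a separate TGACGT on the minus strand at -87. JUN held the variant TGACATCA at -67, and FOSL2 alone among the windows searched held TGAGTCA, on the minus strand from position 5. JUNB and the second MAFF window held none of the 4. Among 35116 RefSeq promoters of the same length, TGACGT was found in 7.98%, TGACGTCA in 1.85%, TGACATCA in 2.61% and TGAGTCA in 4.95%. These are matches of letters and not evidence of binding, and TGACGT overlaps TGACGTCA. The CArG box, the serum response element that was also searched, had no match in these windows and was found in 1.29% of promoters. Sequence more than 250 bases before the start was not searched, so an element farther upstream would be missed. The table matched 7 of the 9 genes, with 8 windows; FOSL1 and BATF3 are named only.

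The first comparison asked how AP-1 transcripts differed between senescent and non-senescent cells. In EV+4OHT cells, 5 of the 9 genes rose (FOS, FOSB, JUN, JUNB and MAFF) and 2 fell (FOSL1 and FOSL2), with JUND and BATF3 not past the threshold. Over all genes tested, 53.5% were called in this comparison, 26.7% higher and 26.8% lower. The median log2 fold change was 0.28 over the 9 genes and -0.02 over all genes. The changes ran from a 6.24-fold rise of FOSB to a fall of FOSL2 to 0.413 of its EV level. FOSB passed the filter on low counts only through groups given 4OHT, where it was high.

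Within the Fos group, FOS and FOSB moved against FOSL1 and FOSL2. FOS, the founding Fos protein and an immediate-early gene, had 9.73, 9.82, 10.4 and 6.62 CPM in the EV+4OHT libraries, against 2.24, 1.37, 1.53 and 1.78 CPM in the EV libraries. Every EV+4OHT library was above every EV library, and the lowest EV+4OHT value stood well clear of the highest EV value. The log2 fold change was 2.39 ± 0.19 (SE), or 5.26-fold, with an adjusted p of 6.53e-10 by edgeR's quasi-likelihood test. FOSB, a close relative of FOS also made early after stimulation, had 1.83, 1.10, 1.74 and 2.33 CPM in EV+4OHT and 0.498, 0.0683, 0.211 and 0.307 CPM in EV. The groups did not overlap, but the EV values rest on 1 to 8 reads per library and the EV+4OHT values on 14 to 31. Its log2 fold change was 2.64 ± 0.40 (95% interval 1.81 to 3.47, edgeR adjusted p = 7.84e-06). That call is not independent of the filter on low counts, which FOSB passed only through groups given 4OHT.

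FOSL1, which encodes Fra-1, had 136, 128, 129 and 120.2 CPM in EV+4OHT, against 203, 177, 159.6 and 191 CPM in EV. All 4 EV+4OHT libraries were below all 4 EV libraries, and FOSL1 fell by 0.51 on the log2 scale (SE 0.10, edgeR adjusted p = 0.000161). FOSL2, which encodes Fra-2, had 20.03, 31.6, 24.9 and 20.5 CPM in EV+4OHT and 62.8, 55.99, 56.3 and 60.1 CPM in EV. Its groups were also separate, with EV+4OHT replicate 54 highest of the senescent libraries. FOSL2 fell by 1.28 on the log2 scale (SE 0.12, edgeR adjusted p = 1.17e-08), the larger of the 2 falls.

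Within the Jun group JUNB rose most. JUNB, which pairs with Fos proteins and is a weaker activator than JUN on single sites, had 52.3, 61.1, 59.3 and 56.6 CPM in EV+4OHT and 26.8, 24.3, 18.5 and 23.7 CPM in EV. The groups did not overlap, and the log2 fold change was 1.30 ± 0.11 (2.46-fold, edgeR adjusted p = 1.18e-09). JUNB was the only one of the 9 genes to share exon sequence with another gene, HOOK2 on the opposite strand, and the library method does not mark strand. HOOK2 had 1688 counts over all libraries against 10261 for JUNB, and its log2 fold change in the same comparison was -0.49 ± 0.17 (edgeR adjusted p = 0.0166).

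JUN, the main partner of Fos proteins, had 108, 115, 109 and 104 CPM in EV+4OHT and 103, 88.8, 72.8 and 93.8 CPM in EV. The ranges nearly met, the lowest EV+4OHT library lying just above the highest EV library. The log2 fold change was 0.28 ± 0.10 (edgeR adjusted p = 0.0263), the smallest among the 7 genes called. That call was lost when libraries were scaled by their totals alone (0.17, adjusted p = 0.194) or when 1 of 4 libraries was left out: EV replicate 51 (0.19, 0.113), EV replicate 50 (0.26, 0.0576), EV+4OHT replicate 54 (0.26, 0.0672) or EV+4OHT replicate 55 (0.26, 0.0553). JUND, often the Jun protein of resting cells, had 5.49, 9.82, 6.90 and 8.35 CPM in EV+4OHT and 3.98, 8.33, 8.88 and 8.48 CPM in EV. These ranges overlapped, EV replicate 49 was the lowest of all 8, and the log2 fold change of 0.04 ± 0.26 (95% interval -0.50 to 0.58) was not past the threshold (edgeR adjusted p = 0.909).

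MAFF, a small Maf protein whose partners include NFE2L2, had 84.0, 81.3, 89.2 and 78.2 CPM in EV+4OHT and 48.8, 42.1, 37.9 and 51.5 CPM in EV. The groups were separate and the log2 fold change was 0.88 ± 0.09 (1.85-fold, edgeR adjusted p = 3.53e-08). BATF3, known from mouse dendritic cells as a Jun partner, had 0.582, 0.471, 0.536 and 1.05 CPM in EV+4OHT and 0.560, 0.546, 1.37 and 0.430 CPM in EV. Its groups overlapped, it had 6 to 14 reads per EV+4OHT library and 7 to 26 per EV library, and its interval of -1.12 to 0.79 on the log2 scale covers changes near 2-fold either way (log2 fold change -0.17, edgeR adjusted p = 0.783). Without EV replicate 51 the BATF3 log2 fold change was 0.36, also not called. The ranges did not overlap for 5 genes higher and 2 lower in EV+4OHT, in a comparison where 24% of all genes tested were higher and 24% lower without overlap. The calls of FOS, FOSB, FOSL1, FOSL2, JUNB and MAFF held in all 25 settings tried, the omission of EV replicate 51 among them.

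**Figure D1:**
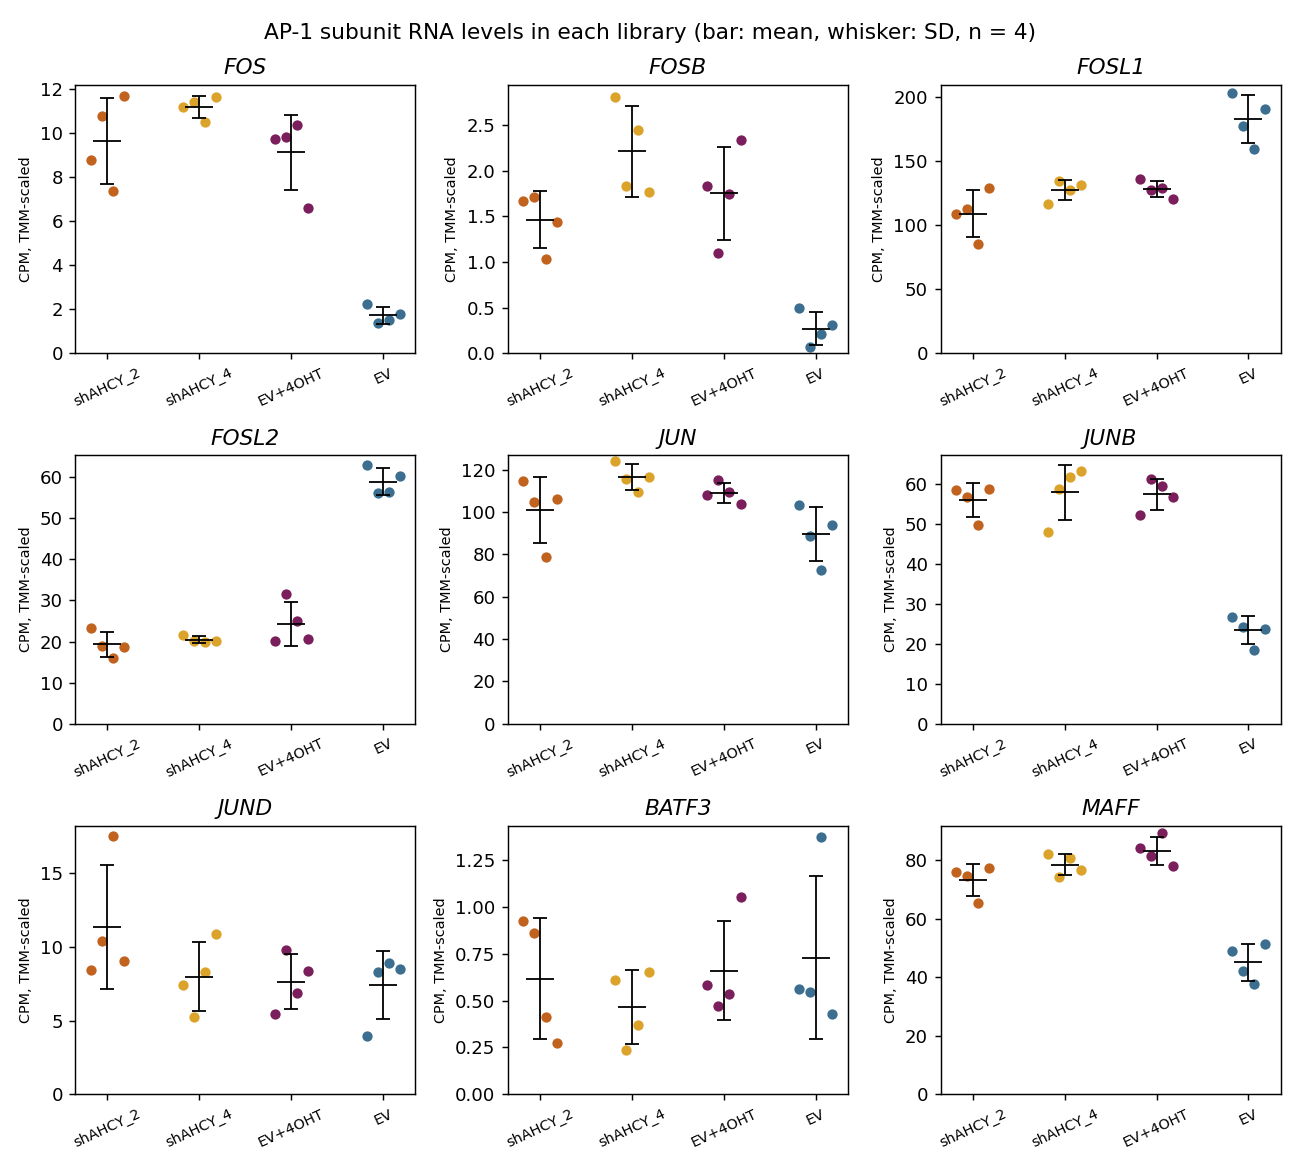
Each panel plots the CPM of 1 gene, with a point per library and the group mean, for shAHCY_2, shAHCY_4, EV+4OHT and EV in that order. FOS, FOSB, JUNB and MAFF are higher in all 12 libraries given 4OHT than in the 4 EV libraries, and FOSL1 and FOSL2 are lower. The share of all genes separated in this way was not computed.

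**Figure D2:**
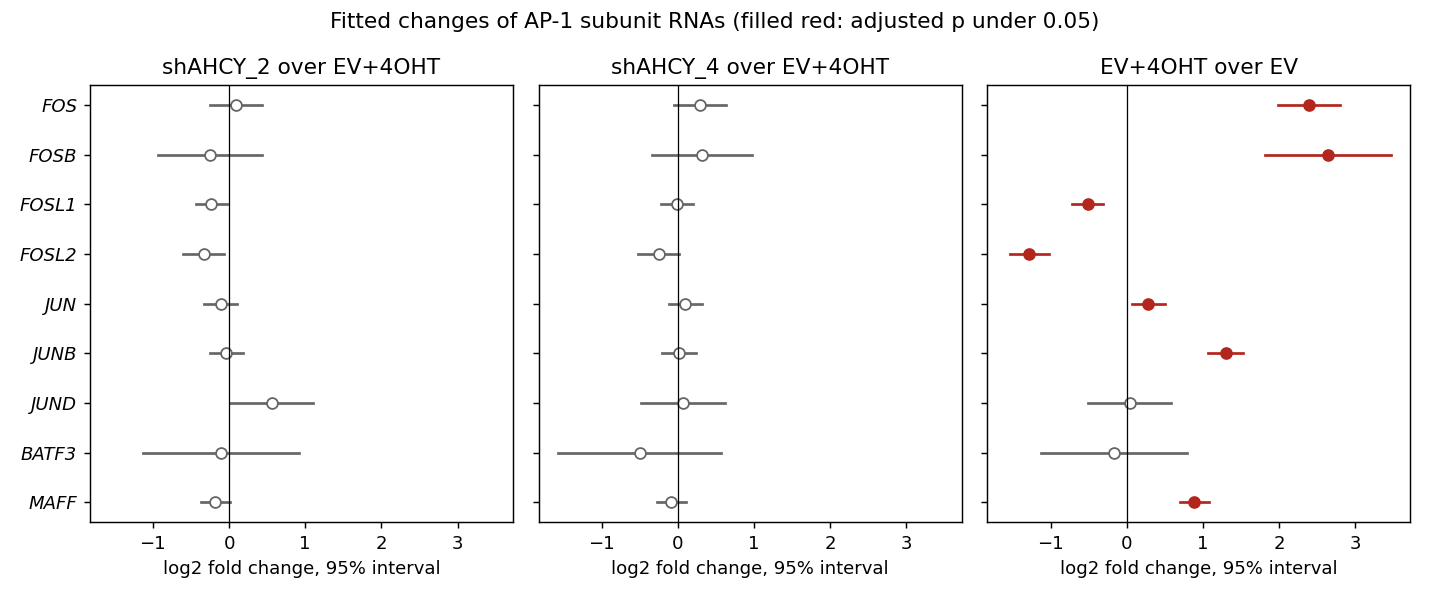
Log2 fold changes of the 9 genes with 95% intervals from the edgeR fit, by comparison. The changes of EV+4OHT over EV run from -1.28 to 2.64, while the intervals of the hairpin comparisons against EV+4OHT mostly span 0.

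To compare genes with each other, counts were divided by the length of the longest reference transcript and scaled to a common total, as TPM values are. On that length-scaled scale FOSL1 had the highest level of the 9 genes in every group, at 148 ± 25.5 in shAHCY_2, 176 ± 11.8 in shAHCY_4, 165 ± 9.79 in EV+4OHT and 275 ± 31.6 in EV (SD, n = 4 each). In EV+4OHT cells JUNB (67.4 ± 4.26), JUN (66.0 ± 2.28) and MAFF (54.3 ± 4.12) came next in level by the longest transcript, with JUNB and JUN within each other's spread. FOS (9.07 ± 1.73), JUND and FOSL2 followed at 8.75 and 7.73, also within their spread, and FOSB and BATF3 were lowest at 0.996 and 0.601. In EV cells the order after FOSL1 was JUN (63.7 ± 9.85), MAFF (34.5 ± 4.62) and JUNB (32.3 ± 5.32), the last pair within their spread, then FOSL2 at 22.04 ± 1.55 and JUND at 9.96. There FOS had a length-scaled level of 2.02 ± 0.479, below FOSL2, BATF3 one of 0.777 and FOSB one of 0.181. The order below FOSL1 depends on the length used. With the median transcript length MAFF (31.5) stood above JUNB (28.0) and JUN (27.3), and FOSL2 (6.40) above JUND (5.73), in EV+4OHT, and in EV FOSL2 (17.0) stood above JUNB (12.4).

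FOSL1 therefore made up most of the length-scaled Fos-group sum in every library. Its share averaged 89.4% ± 0.450 in shAHCY_2, 89.6% ± 0.838 in shAHCY_4, 90.2% ± 1.21 in EV+4OHT and 91.9% ± 0.421 in EV. FOS took 6.10% of that sum in each hairpin group and 4.95% ± 0.739 in EV+4OHT, against 0.669% ± 0.096 in EV. With the median transcript length in place of the longest, the FOS share was 10.8%, 10.9% and 8.86% in shAHCY_2, shAHCY_4 and EV+4OHT, against 1.23% in EV. FOSL2 took 3.98%, 3.60% and 4.25% in shAHCY_2, shAHCY_4 and EV+4OHT, and 7.38% in EV. The summed Fos-group level itself was 182 ± 10.9 in EV+4OHT and 299.7 ± 33.6 in EV.

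In the Jun group, JUN and JUNB had near-equal shares in cells given 4OHT. JUN took 43.5% ± 4.00 in shAHCY_2, 47.8% ± 4.22 in shAHCY_4 and 46.4% ± 1.78 in EV+4OHT, against 59.95% ± 2.43 in EV. JUNB took 47.0% ± 0.756, 46.0% ± 3.90 and 47.4% ± 1.01 in those 3 groups, against 30.3% ± 1.52 in EV. The summed Jun-group level was 142 ± 6.84 in EV+4OHT and 106 ± 12.6 in EV, so the Fos-group sum was lower and the Jun-group sum higher in EV+4OHT, each without overlap of the mean ± SD ranges. These levels and shares are descriptions with no test, they move with the transcript length used, and mRNA shares are not protein shares. The levels and sums also leave out the scaling factors of the tested fit, so their differences between groups need not match the fitted changes. JUN ranged from 62.9 to 68.1 in EV+4OHT and from 51.6 to 75.7 in EV on this scale, with overlap.

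**Figure D3:**
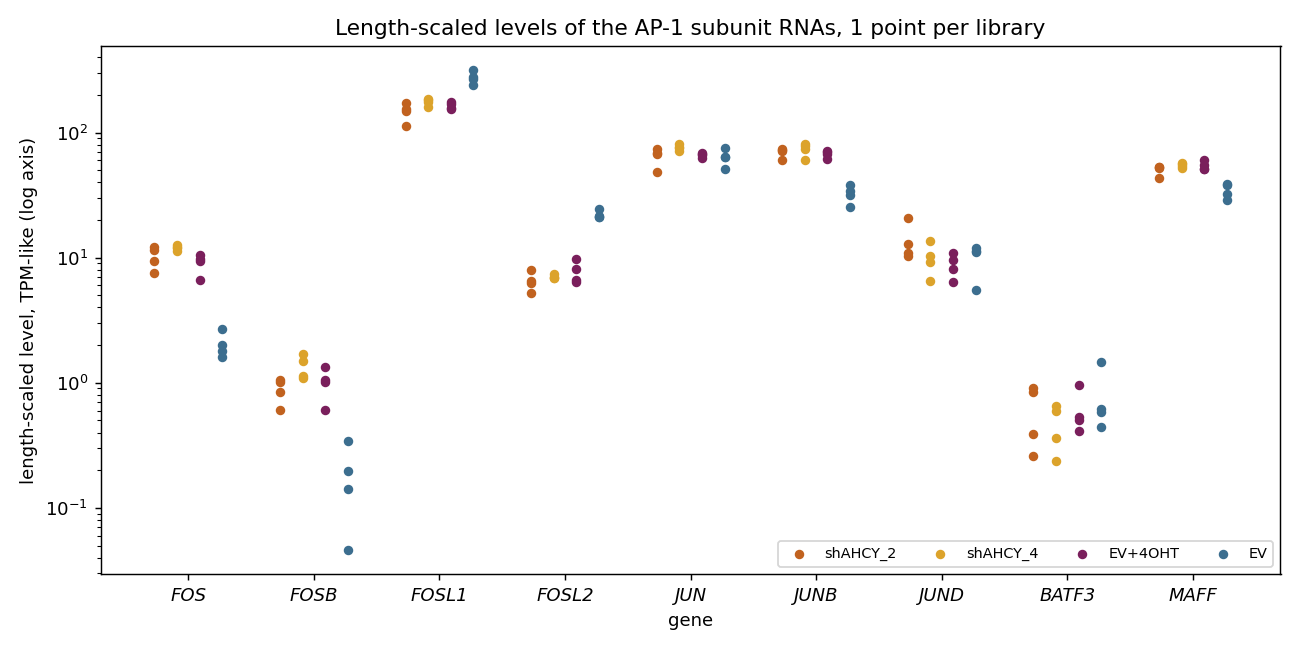
Length-scaled levels of the 9 genes by group, in TPM-like units over genes with a transcript length and without the scaling factors of the tested fit. FOSL1 has the highest level in each group, 165 in EV+4OHT and 275 in EV, and JUNB stands at 67.4 in EV+4OHT beside 32.3 in EV.

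The next comparisons asked how AHCY knockdown altered AP-1 transcripts in cells given 4OHT. With shAHCY_2, 0 of the 9 genes were called by edgeR's quasi-likelihood test against EV+4OHT, where 6.98% of all genes tested were called, 3.91% higher and 3.07% lower. Without adjustment, 3 had a p under 0.05 (FOSL1, FOSL2 and JUND), and limma-voom called 0 of 9 and DESeq2 0 of the 8 with a value (all but BATF3). With shAHCY_4, edgeR called 0 of 9, against 14.4% of all genes (7.58% higher and 6.86% lower), with 0 under an unadjusted p of 0.05 and 0 calls by DESeq2 and limma-voom. Both hairpin comparisons use the same EV+4OHT libraries, so their values are given side by side and not as independent results. In the same fit the log2 fold change of AHCY was -3.14 ± 0.14 with shAHCY_2 and -3.48 ± 0.14 with shAHCY_4 (edgeR adjusted p = 3.54e-13 and 1.03e-13).

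FOS was within a 2-fold change of its EV+4OHT level by the intervals of both hairpins. FOS had 8.79, 10.8, 7.37 and 11.7 CPM in shAHCY_2, 11.2, 11.4, 10.5 and 11.6 CPM in shAHCY_4 and the EV+4OHT values given above. The shAHCY_2 libraries overlapped EV+4OHT and the shAHCY_4 libraries all lay above it, in a comparison where 12.1% of all genes were higher without overlap. Its log2 fold changes were 0.09 (95% interval -0.25 to 0.44, edgeR adjusted p = 0.792) with shAHCY_2 and 0.29 (-0.05 to 0.63, adjusted p = 0.267) with shAHCY_4.

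FOSB had 1.67, 1.72, 1.04 and 1.43 CPM in shAHCY_2 and 2.80, 1.83, 2.44 and 1.76 CPM in shAHCY_4, both overlapping EV+4OHT. Its log2 fold changes of -0.25 ± 0.33 and 0.31 ± 0.32 had opposite signs and were not past the threshold (edgeR adjusted p = 0.707 and 0.576). Each FOSB library of either hairpin still lay above all EV libraries.

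JUNB had 58.5, 56.8, 49.7 and 58.6 CPM in shAHCY_2 and 47.9, 58.6, 61.8 and 63.1 CPM in shAHCY_4, each group overlapping EV+4OHT. JUNB had log2 fold changes of -0.04 (95% interval -0.26 to 0.18, edgeR adjusted p = 0.877) with shAHCY_2 and 0.02 (-0.20 to 0.24, adjusted p = 0.945) with shAHCY_4. JUN had 114, 105, 78.6 and 106 CPM in shAHCY_2 and 124, 116, 109.6 and 117 CPM in shAHCY_4, both overlapping EV+4OHT, and shAHCY_2 replicate 59 was the lowest. The log2 fold changes of JUN were -0.11 (-0.33 to 0.11, edgeR adjusted p = 0.582) and 0.09 (-0.12 to 0.31, adjusted p = 0.618).

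MAFF, FOSL1 and FOSL2 were not called with either hairpin. MAFF had 76.1, 74.7, 65.3 and 77.4 CPM in shAHCY_2 and 82.1, 74.4, 80.7 and 76.7 CPM in shAHCY_4. All 4 shAHCY_2 values lay below all 4 EV+4OHT values, as 7.69% of all genes did, while the shAHCY_4 values overlapped them. The log2 fold changes of MAFF were -0.18 (95% interval -0.37 to 0.01, edgeR adjusted p = 0.254) and -0.09 (-0.27 to 0.10, adjusted p = 0.6).

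FOSL1 had 109, 113, 85.4 and 129 CPM in shAHCY_2 and 116, 135, 127 and 131 CPM in shAHCY_4, with shAHCY_2 replicate 59 the lowest of these 8 libraries. Its log2 fold changes were -0.23 ± 0.10 (edgeR adjusted p = 0.178) with shAHCY_2 and -0.01 ± 0.10 (adjusted p = 0.966) with shAHCY_4. FOSL2 had 23.4, 19.02, 16.0 and 18.7 CPM in shAHCY_2 and 21.7, 20.01, 19.98 and 20.1 CPM in shAHCY_4, with log2 fold changes of -0.33 ± 0.13 (adjusted p = 0.133) and -0.25 ± 0.13 (adjusted p = 0.216). Both groups overlapped EV+4OHT, in which replicate 54 was high.

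JUND had 8.42, 10.4, 17.5 and 9.08 CPM in shAHCY_2 and 7.43, 5.26, 8.29 and 10.9 CPM in shAHCY_4. In shAHCY_2 the highest value, in replicate 59, was well above every other library of the 16. The log2 fold change was 0.56 ± 0.26 (95% interval 0.02 to 1.10, edgeR adjusted p = 0.21) with shAHCY_2, 0.29 without replicate 59, and 0.07 ± 0.27 with shAHCY_4. With no filter on low counts the shAHCY_2 value was called (0.56, adjusted p = 0.0410). Replicate 59 was the lowest shAHCY_2 library for 7 of the 9 genes and the highest for JUND. Without it, FOSL1 had a log2 fold change of -0.13, FOSL2 -0.26, JUN -0.01 and MAFF -0.13, and none was called.

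BATF3 had 4 to 12 reads per shAHCY_2 library and 3 to 10 per shAHCY_4 library, and its intervals of -1.13 to 0.92 and -1.57 to 0.57 leave its change undetermined at this depth. The interval lay within a 2-fold change in either direction for 7 of the 9 genes with shAHCY_2, JUND and BATF3 being the exceptions, and for 8 of 9 with shAHCY_4, where the exception was BATF3.

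Set directly against each other, shAHCY_2 over shAHCY_4, the hairpins gave 0 of 9 calls by edgeR, 0 of 9 by limma-voom and 0 of 7 by DESeq2, which had no value for FOSB and BATF3, with 1 gene (FOSL1) at an unadjusted p under 0.05 and 1.24% of all genes called, 0.702% higher and 0.54% lower. FOSB, at -0.56 ± 0.33 (adjusted p = 0.377), was lower in all 4 shAHCY_2 libraries, as 5.89% of all genes were. FOSL1 stood at -0.22 ± 0.10 (adjusted p = 0.253) and JUND at 0.49 ± 0.26 (adjusted p = 0.333), and the other 6 lay between -0.20 and 0.40.

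Against EV cells, FOS, FOSB, JUNB and MAFF were called higher and FOSL1 and FOSL2 lower in both hairpin groups. With shAHCY_2 over EV, 4 of the 9 were called higher and 2 lower, where 48.1% of all genes were called, 24.5% higher and 23.6% lower. With shAHCY_4 over EV, 5 were called higher and 2 lower, where 51.2% were called, 25.4% higher and 25.8% lower. These comparisons share the EV libraries. FOS had log2 fold changes of 2.49 and 2.69, FOSB 2.40 and 2.96, JUNB 1.26 and 1.32, and MAFF 0.70 and 0.80, for shAHCY_2 and shAHCY_4 in turn. FOSL1 had -0.74 and -0.52, and FOSL2 -1.61 and -1.53. JUN was called with shAHCY_4 (0.38, edgeR adjusted p = 0.00455) and not with shAHCY_2 (0.17, adjusted p = 0.181). Without shAHCY_2 replicate 59, JUN was called with shAHCY_2 too (0.28, adjusted p = 0.0119), as it was with the GC trend removed (0.22, adjusted p = 0.0144). JUND missed the threshold with shAHCY_2 (0.60, adjusted p = 0.0591), and was past it in 6 of 25 settings, with a range of 0.33 to 0.69. These 6 were DESeq2 (adjusted p = 0.0412), no filter on low counts (0.00225), the GC trend removed (0.0381) and the omission of EV replicate 51 (0.0449), shAHCY_2 replicate 57 (0.0471) or shAHCY_4 replicate 62 (0.0488). All 12 libraries given 4OHT lay above all 4 EV libraries for FOS, FOSB, JUNB and MAFF and below them for FOSL1 and FOSL2. JUN, JUND and BATF3 overlapped. The share of all genes separated in this way was not computed. With single groups set against EV, 19.5% of all genes were higher and 19.6% lower without overlap in shAHCY_2. In shAHCY_4 these shares were 22.6% and 22.2%.

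Genes known to carry AP-1 sites in their promoters or enhancers were counted beside the subunits. In EV+4OHT over EV, 19 of 24 rose and 1 fell, where 26.7% of all genes rose and 26.8% fell. The median change was 1.52 on the log2 scale, against -0.02 over all genes. Among the genes that rose, MMP10 and CSF2 averaged 0.197 and 0.316 CPM in EV. These genes passed the filter on low counts only through groups given 4OHT, where they were high. The list was chosen with earlier results of these data known. MMP1, the interstitial collagenase, averaged 7650 ± 287 CPM in EV+4OHT and 616 ± 38.6 CPM in EV, a log2 fold change of 3.63 ± 0.07, and MMP3 (stromelysin 1) rose by 7.15 ± 0.18 on the log2 scale. CXCL8, the neutrophil chemokine IL-8, rose by 6.73 ± 0.16 and TIMP1, a metalloproteinase inhibitor, by 2.67 ± 0.07. EZR, the membrane linker ezrin, was the gene that fell, with a log2 fold change of -1.21; it was picked out because it was alone.

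The same 24 genes divided under the hairpins. With shAHCY_2 over EV+4OHT, 1 rose and 8 fell (median -0.16), and with shAHCY_4 over EV+4OHT, 4 rose and 11 fell (median -0.22), beside a median of 0.01 over all genes in each. Over all genes, 3.91% were called higher and 3.07% lower with shAHCY_2, and 7.58% higher and 6.86% lower with shAHCY_4. SPP1, the secreted phosphoprotein osteopontin, averaged 233 ± 16.3 CPM in shAHCY_2 and 192 ± 25.9 CPM in shAHCY_4, against 385 ± 26.8 CPM in EV+4OHT. Its log2 fold changes were -0.72 ± 0.09 and -1.003 ± 0.089 (edgeR adjusted p = 8.43e-06 and 5.07e-08). DUSP1, a phosphatase that switches off MAP kinases, fell by 0.47 (SE 0.09) with shAHCY_2 and by 0.58 (SE 0.09) with shAHCY_4. CXCL8 fell by 0.73 (SE 0.11) with shAHCY_2 and by 0.66 (SE 0.11) with shAHCY_4, and PTGS2, which makes prostaglandins, by 0.76 (SE 0.15) and by 0.80 (SE 0.15). The metallothionein MT2A fell by 0.29 (SE 0.09) with shAHCY_2 and by 0.64 (SE 0.09) with shAHCY_4, and the cytokine IL6 by 1.06 (SE 0.24) and by 1.88 (SE 0.26). MMP1 was the gene that rose with shAHCY_2, by 0.27, and it rose by 0.32 with shAHCY_4. MMP3, MMP10 and EZR also rose with shAHCY_4, by 0.62, 0.64 and 0.33. With shAHCY_2 they had 0.28, 0.09 and -0.07 and were not called. Between the hairpins, shAHCY_2 over shAHCY_4, 1 was called higher (MT2A, 0.35) and 2 lower (MMP10, -0.54, and EZR, -0.41). Over all genes, 0.702% were called higher and 0.54% lower between the hairpins.

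Other immediate-early genes, which share the fast induction of FOS and FOSB, gave 10 of 15 higher and 4 lower in EV+4OHT over EV (median 0.61), beside the 26.7% and 26.8% of all genes and their median of -0.02. IER3, a stress-induced survival gene, rose by 2.11 ± 0.08 on the log2 scale, and the zinc finger factors EGR2 and EGR1 by 2.99 ± 0.25 and 1.12 ± 0.10. CCN1, a secreted matricellular protein, fell by 1.16 (SE 0.08). EGR3, also called higher, averaged 0.160 CPM in EV and passed the filter on low counts only through groups given 4OHT. With shAHCY_2 over EV+4OHT 1 rose (EGR1, 0.37 ± 0.10, and 0.13 with shAHCY_4, not called) and 2 fell (IER3, -0.45 ± 0.08, and DUSP1, which is in both lists), and with shAHCY_4 3 were called, all lower, among them IER3 (-0.50 ± 0.08) and KLF6 (-0.30 ± 0.07, and -0.10 with shAHCY_2, not called). These counts stand beside the all-gene shares given for the same comparisons. Of 11 other AP-1 and MAF family genes 7 were tested, and 2 rose and 1 fell in EV+4OHT over EV, where 53.5% of all genes were called: ATF3, a stress-induced partner of Jun proteins, by 0.98 ± 0.20, the small Maf gene MAFG by 0.57 ± 0.15, and JDP2, a Jun dimerization protein, at -0.84 ± 0.22. ATF3 had log2 fold changes of 0.03 ± 0.19 with shAHCY_2 and -0.32 ± 0.20 with shAHCY_4 over EV+4OHT, not past the threshold (edgeR adjusted p = 0.941 and 0.307). Of the partners of small Maf proteins, 4 of 6 were tested, and NFE2L3 fell by 1.37 (SE 0.25), while NFE2L2, the oxidative stress regulator, had 0.21 and was not called.

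**Figure D4:**
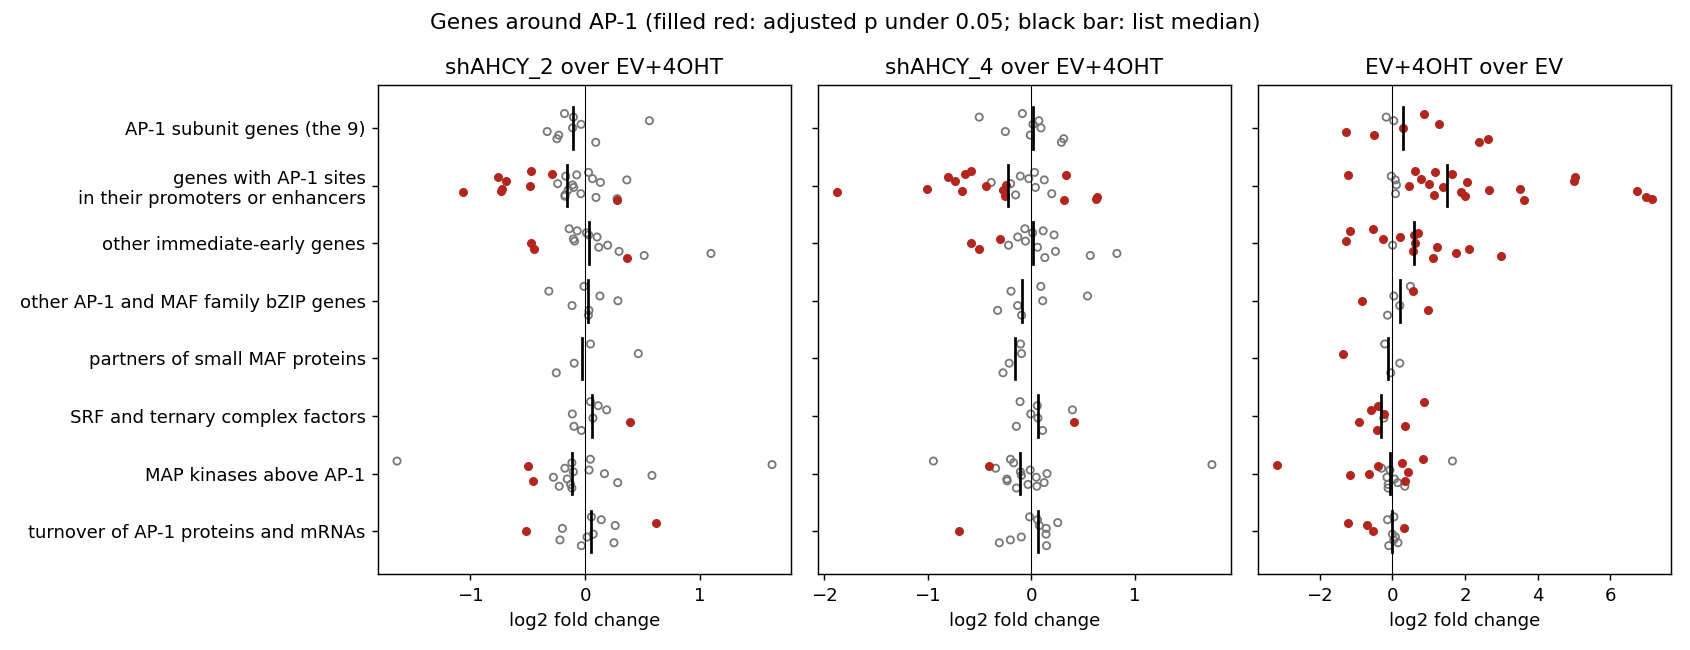
Log2 fold changes of the tested members of each context list, a point per gene, by comparison, with the list median. Genes with AP-1 sites have a median of 1.52 in EV+4OHT over EV, and medians of -0.16 and -0.22 with shAHCY_2 and shAHCY_4 over EV+4OHT.

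Genes most like each subunit were found by the root mean square difference of centred log2 CPM over the 16 libraries, whose values share the 4 group means and each library's depth. For FOSL1 these were RANGAP1 (0.0684), CAVIN1 (0.0901) and DAG1 (0.0948). For JUNB they were TGFB1 (0.0947), HPCAL1 (0.108) and CDKN1A (0.120). FOS was less closely matched, by CNIH3 (0.247), BHLHE40 (0.249) and GFPT2 (0.2495), and FOSL2 by CSRP2 (0.159), LAYN (0.180) and ARSJ (0.182). EIF4G1 (0.0689), PPM1F (0.0723) and MSN (0.0767) were nearest to JUN, and MLX (0.0798), ZNF622 (0.0805) and MAD2L1BP (0.0818) to MAFF. The nearest genes to JUND, FOSB and BATF3, at 0.173 (RAB30-DT), 0.384 (CD163L1) and 0.432 (MIB1), were farther off than the nearest genes to JUN, JUNB, FOSL1, FOSL2 and MAFF. This difference also grows with counting noise. FOS, FOSB and BATF3 had as few as 20, 1 and 3 reads in a library, against 757 for JUN and 823 for FOSL1. The part of read number in this ranking was not tested.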

How the data were processed

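Trizol and a column kit gave total RNA, from which Smart-Seq2 and Nextera XT, which read whole cDNAs without marking strand, made the libraries, per the labels' protocols. CASAVA 1.8.2, TopHat2 2.0.11 (a spliced aligner), featureCounts 1.18.0 and the hg19 or GRCh37 genome are named, per the submitters' processing notes. How multi-mapping reads were counted, with which annotation and strand setting, is not given in the sources used here. The authors deposited whole-number counts per gene for 16 libraries, not normalized. Symbols were matched by identifier for 50127 of 62069 genes, and the 11942 identifiers without a symbol held 0.503% of counts.

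In edgeR 4.0.16 (R 4.3.3), genes were kept by filterByExpr with a minimum count of 10 and scaled by TMM factors. A single quasi-likelihood model with a mean per group was fitted to all 16 libraries, which gives every comparison the same estimate of the spread. All tests are two-sided, with Benjamini-Hochberg adjustment over 13526 genes and a threshold of 0.05. Standard errors are the absolute log2 fold change over the square root of F, and 95% intervals use the fit's degrees of freedom. Levels are TMM-scaled CPM. The spread between libraries that edgeR names the coefficient of biological variation was 11.9%, and it could be technical. The fit was also run on simulated counts with few genes changed and no GC trend, unlike the data here, so that run does not cover these conditions. All 24 pairs of replicates within a group differed by more than sampling noise, with chi-square over degrees of freedom of 3.04 to 32.3. Replicate numbers come from the titles and are not shared between groups. The reference, GRCh38 with GENCODE 29 transcripts and RefSeq promoters, is of another build than the counts, and was used for names, lengths, GC content, neighbours and promoter sequence.

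The 9 genes, the 7 context lists and the tests were chosen with earlier results of these data known. Named genes are the 9, AHCY, up to 4 members of each list with the smallest adjusted p in the comparison described, and the 3 genes most like each of the 9. Some other list members are named for their direction or their low level. Alternatives were other scaling, DESeq2 1.42.0, limma-voom (limma 3.58.1), other count filters, the groups compared alone, a GC trend removed by a spline, and each library left out.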

Additional observations from a re-analysis of the deposited data

Results flagged for a closer look

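A total of 4 values stood apart from the other 3 libraries of their group by Dixon's test, which chance passes in about 1 of 20 groups; 40 combinations of gene and group were examined, 36 of them for the 9 AP-1 genes. FOSL2 had 21.7 CPM in shAHCY_4 replicate 61, where the nearest library had 20.1 CPM, a small gap in a tight group. JUND had 3.98 CPM in EV replicate 49, below the nearest value of 8.33 CPM. BATF3 had 1.37 CPM in EV replicate 51, above the nearest value of 0.560 CPM, and rests on 26 reads there. AHCY had 17.98 CPM in shAHCY_4 replicate 63, above the nearest value of 14.0 CPM and far below the EV+4OHT libraries.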

How the results depend on the processing

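No paired analysis was possible because the groups share no replicate numbers. Over 25 settings, the direction of no call of the 9 genes reversed. In EV+4OHT over EV, 218 of 223 values stayed on their side of the threshold, and the other 5 were those of JUN given with its result, whose range was 0.17 to 0.33. In the hairpin comparisons against EV+4OHT, the count of AP-1 genes called was 1 with no filter on low counts for shAHCY_2 (JUND) and otherwise 0. In shAHCY_2 over EV it was 6 to 8, through JUN and JUND. Scaled by library totals, 38.2% of the genes called in EV+4OHT over EV were higher, against 49.9% with TMM, and the median of all genes moved to -0.13. In that scaling 69.8% of calls were higher for shAHCY_2 over EV+4OHT, against 56.04%, and 67.4% for shAHCY_4, against 52.5%. Over all genes, 168 were called in shAHCY_2 over shAHCY_4, against 481 with DESeq2, 553 with no filter, 78 with the groups alone, 620 with the GC trend removed and 69 to 328 with 1 library left out (328 without EV replicate 51; 88, 110, 69, 89 and 75 without shAHCY_2 replicates 58 and 60 and shAHCY_4 replicates 62, 63 and 64). There the context lists gave 4 calls, against 7 with DESeq2, 8 with no filter, 7 with the GC trend removed and 2 to 6 with libraries left out (2 without EV+4OHT replicate 56, shAHCY_2 replicate 58 or 60, or shAHCY_4 replicate 62, 63 or 64). In shAHCY_4 over EV+4OHT, 1953 genes were called, 3136 with the groups alone, and 1401 to 2504 with 1 library left out. Leaving out EV replicate 51 and shAHCY_2 replicate 59 together, chosen after seeing the data, gave 3059 there, 272 between the hairpins and the same AP-1 counts against EV+4OHT, 0. In shAHCY_2 over EV+4OHT the lists gave 16 calls, 10 to 16 with 1 library left out, the lowest without EV+4OHT replicate 55, and 20 without that pair. With the median transcript length, the FOSL1 share was 83.4% in shAHCY_2, 83.7% in shAHCY_4, 84.9% in EV+4OHT and 88.5% in EV, and the JUN share in EV was 56.8%; the FOS share is given with its result. The cause of these shifts was not tested. BATF3 had no value under the stricter count filter, with the groups alone, or by DESeq2 in shAHCY_2 over EV+4OHT and in shAHCY_2 over shAHCY_4, and FOSB had none by DESeq2 in the last. Depth limits BATF3 and, in EV, FOSB.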

Other observations

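Over all genes, 26.7% were called higher and 26.8% lower in EV+4OHT over EV. Of 17 MAP kinases and their activators, 4 rose and 4 fell in EV+4OHT over EV (median -0.06), near those shares. MAP2K6, an activator of p38, fell by 3.18 on the log2 scale (SE 0.53) and RPS6KA3, a kinase below ERK, rose by 0.85 ± 0.14. MAP2K6 was at a low level, 0.277 ± 0.216 CPM in EV+4OHT against 2.63 ± 0.938 CPM in EV, so the size of its fall is uncertain. With shAHCY_2 over EV+4OHT 2 fell, MAP2K3 by 0.50 (SE 0.11) and MAP2K2 by 0.45 (SE 0.11), and with shAHCY_4 1 fell, MAP2K3 by 0.41 (SE 0.11), beside 3.07% and 6.86% of all genes called lower; MAP2K2 had -0.23 with shAHCY_4 and was not called. Of 8 genes for SRF, its cofactors and cyclic AMP response factors, 2 rose and 5 fell in EV+4OHT over EV (median -0.32), among them CREM, a cyclic AMP response factor (0.87 ± 0.10), and ELK3, a ternary complex factor (-0.92 ± 0.10). ELK3 was called higher with shAHCY_2 (0.39 ± 0.11) and with shAHCY_4 (0.41 ± 0.11) over EV+4OHT.

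Of 11 genes for turnover of AP-1 proteins and mRNAs, 1 rose and 3 fell in EV+4OHT over EV, where 53.5% of all genes were called. ZFP36 (tristetraprolin), which binds AU-rich mRNAs such as that of FOS and marks them for decay, averaged 14.5 ± 1.8 CPM in shAHCY_2 and 12.8 ± 1.5 CPM in shAHCY_4, against 20.8 ± 1.1 CPM in EV+4OHT. Its log2 fold changes were -0.52 ± 0.12 and -0.70 ± 0.12 (edgeR adjusted p = 0.00957 and 0.000438), in comparisons that share the EV+4OHT libraries. Over EV, ZFP36 in EV+4OHT stood at -0.53 ± 0.12. HNRNPD, another AU-rich element binder, fell by 1.23 (SE 0.17) in EV+4OHT over EV and rose by 0.62 ± 0.17 with shAHCY_2 over EV+4OHT. With shAHCY_4 its log2 fold change was 0.26 ± 0.17, not called (edgeR adjusted p = 0.368).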
